A study of Mus musculus with 6 samples.

Results

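The miR-29 family in mouse comprises mmu-miR-29a, mmu-miR-29b and mmu-miR-29c, and each was represented by 1 probe (4 spots) on the 2-colour arrays used here. These 3 were all the members, found by their annotation among 275 named mouse miRNAs (294 probes). The rule uses names and no measured value, although the family was picked with earlier results of these data known. RNA came from cultures of G1E-ER4, an erythroid mouse line that lacks its own GATA-1 and carries an estrogen-responsive form of this transcription factor. Cells given 1e-07 M estradiol for 24 h (3 cultures, each grown and harvested independently) were set against untreated cells at 0 h (3 cultures), and all were kept in medium with serum, monothioglycerol, erythropoietin and stem cell factor. All 6 samples are of this single line; no culture kept for 24 h without estradiol and no cells lacking the GATA-1 construct were analysed here, so the restored GATA-1 activity, the hours in culture and any further action of estradiol cannot be told apart. Each sample was labelled with Hy3 and hybridised with a Hy5-labelled reference, an equal pool of all 6 samples, so that a value is the log2 ratio of a sample to that pool. An equal pool cannot lie above or below all of its samples, so a probe on 1 side of 0 on all 6 arrays carries an offset. For such probes the difference between the groups was read, and the distance from 0 was not.

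MicroRNAs are short RNAs that guide Argonaute proteins to messenger RNAs, mostly through pairing of the seed, the bases next to the 5′ end. MiR-29 is known for repressing mRNAs of collagens and other matrix proteins, of the de novo DNA methyltransferases, of TET enzymes and of the survival factor MCL1, and in the blood system it has been studied in stem cell self-renewal and in myeloid leukaemia. The family is made from a pair of gene clusters, each of which also encodes a copy of miR-29b.

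The mature sequences are shown because the 3 members differ by few bases. The arrays use the older names without an arm, which denote the 3p arm, and the RefSeq sequences of that arm (assembly GRCm38.p6; all 3 names matched) are printed 5′ to 3′ with the seed, bases 2 to 8, in capitals.

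miR-29a: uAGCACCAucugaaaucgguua

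miR-29b: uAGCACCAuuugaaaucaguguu

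miR-29c: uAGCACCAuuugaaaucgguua

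All 3 carried the seed AGCACCA, and of 1679 mature mouse names in the RefSeq table only these 3 did. Counted from the 5′ end, miR-29a and miR-29c were identical at 21 of 22 positions, with the single substitution C10U (miR-29a first). MiR-29b is 23 bases long and differed from miR-29c at 3 of 22 compared positions (G18A, U21G and A22U, miR-29c first) and from miR-29a at 4. The difference between miR-29a and miR-29c is a single base, and whether their probes separate them was not tested, since probe sequences were not used here.

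The hairpins are shown for the gene clusters, with the mature 3p arm in capitals. Mir29a and Mir29b-1 lie on the minus strand of chromosome 6 with 275 bases between them, at chr6:31062660-31062747 and chr6:31063023-31063093. Mir29b-2 and Mir29c lie on the plus strand of chromosome 1 with 426 bases between them, at chr1:195037040-195037120 and chr1:195037547-195037634.

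Mir29a: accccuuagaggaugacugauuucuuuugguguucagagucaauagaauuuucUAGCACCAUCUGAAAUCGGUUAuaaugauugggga

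Mir29b-1: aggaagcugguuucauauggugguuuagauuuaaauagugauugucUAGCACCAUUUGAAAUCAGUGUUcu

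Mir29b-2: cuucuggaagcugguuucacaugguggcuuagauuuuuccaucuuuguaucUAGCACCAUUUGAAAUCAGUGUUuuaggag

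Mir29c: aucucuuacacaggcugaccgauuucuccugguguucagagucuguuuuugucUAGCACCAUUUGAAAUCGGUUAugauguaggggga

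Both copies of miR-29b give the same mature RNA, so its probe cannot tell the chromosome 6 and chromosome 1 clusters apart.

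Signal over background limited what could be said of each array. Over miRNA spots the median Hy3 foreground ranged from 1435.5 to 1533.25 on the estradiol arrays, against 1272.75 to 1854.5 on the untreated arrays. A probe was counted as above background where, in at least 50% of its spots, the median foreground lay more than 2 SD of the local background above that background's median. By that measure 57 to 62 of 294 miRNA probes were above background in Hy3 on the estradiol arrays and 37 to 47 on the untreated arrays; in Hy5, which holds the same pool everywhere, the counts were 81 to 88 on the estradiol arrays and 43 to 74 on the untreated arrays. The arrays of the groups thus differed in a channel whose RNA was the same, and the part of this in the results below was not tested. MiR-451, the miRNA that GATA-1 is known to switch on in maturing red cells, had a log ratio of 0.67 ± 0.11 after estradiol and -4.37 ± 0.33 in untreated cells (SD, n = 3 each). Its probe was above background in Hy3 on 3 estradiol and 0 untreated arrays, so the untreated value is limited by background.

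All 3 members were dim. None of the 24 Hy3 spots of miR-29a exceeded background by 2 SD, the highest reaching 1.67 SD, but 8 of its 24 Hy5 spots did. The image software, which marks spots as empty by a looser criterion, called 6 of 12 miR-29a Hy3 spots filled on the estradiol arrays and 1 of 12 on the untreated arrays, and all 4 were filled only in estradiol replicate 3. In the reference channel it called 10 of 12 miR-29a spots filled on the estradiol arrays and 12 of 12 on the untreated arrays.

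MiR-29b and miR-29c were close to or at background. For miR-29c, 0 of 24 Hy3 spots were called filled, and 4 of the 12 untreated spots had a foreground at or below their local background. For miR-29b, 4 of 12 untreated Hy3 spots were at or below background and 2 of 24 were called filled. Those 2 were spots of untreated replicate 3 with an irregular shape that were left out here. Since no member was above background by 2 SD throughout either group, the log ratios below are not turned into folds.

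**Figure D1:**
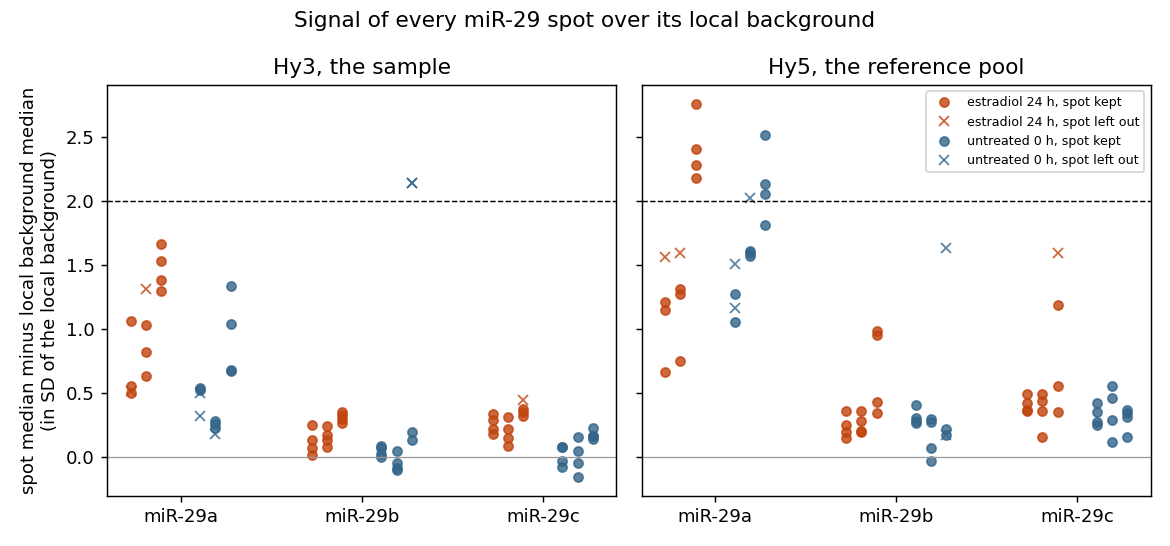
Each point is 1 spot of the miR-29a, miR-29b or miR-29c probe on 1 array, and the vertical axis gives its median foreground minus the local background median in SD of that background, in Hy3 (left) and Hy5 (right), with replicates 1 to 3 from left to right within a group. In Hy3 the only spots above the dashed line at 2 SD are 2 misshapen miR-29b spots of an untreated array, which were left out (crosses), while 8 of 24 miR-29a spots lie above it in Hy5.

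The miR-29a probe was higher relative to the pool after estradiol. Its log ratios were 0.37, 0.30 and 0.19 on the estradiol arrays and -0.53, -0.72 and -0.89 on the untreated arrays. The 3 estradiol arrays all lay above 0 and the 3 untreated arrays all below 0, with a gap of 0.71 between the groups. The means were 0.29 ± 0.091 after estradiol and -0.71 ± 0.18 in untreated cells (SD, n = 3 each), and the difference of 0.996 (SE 0.15) passed the test across all 294 miRNA probes (limma, Benjamini-Hochberg adjusted p = 0.00055). These values average the kept spots of each array, which are not further replicates. Of the 10 kept estradiol spots 9 had a log ratio above 0, the exception being -0.042. All 9 kept untreated spots were below 0, between -1.07 and -0.46. Of the 24 miR-29a spots 5 were left out, which left 2 for untreated replicate 1. With every spot kept the difference was 1.07 (SE 0.15, limma adjusted p = 0.00031).

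The miR-29a ratio could also be read before any normalization. Net Hy3 intensity (foreground minus background medians, mean of the kept spots) was 996, 1199 and 2115 on the estradiol arrays and 711, 367 and 1444 on the untreated arrays. Net Hy5 intensity was 713, 823 and 1864 on the estradiol arrays and 853, 1172 and 2648 on the untreated arrays. In either channel alone the groups overlapped, with replicate 3 the brightest of both groups. Dividing the channels within an array gave ratios of 1.40, 1.46 and 1.13 after estradiol, against 0.83, 0.31 and 0.55 in untreated cells, with no overlap. Among the left-out spots the same ratio was 0.67 and 1.49 after estradiol, and 0.78, 0.40 and 0.26 in untreated cells.

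**Figure D2:**
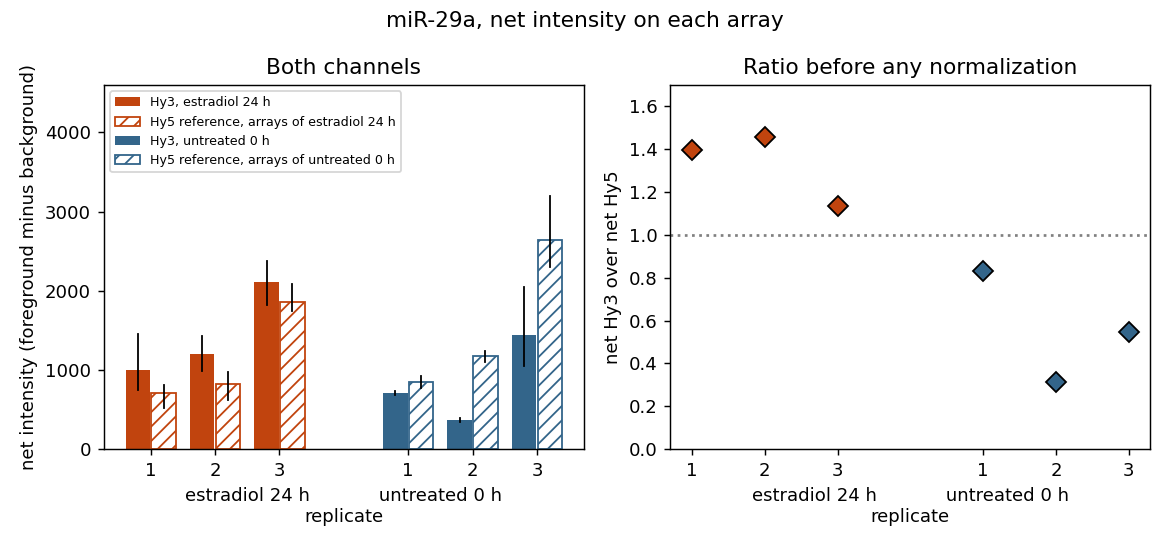
The left panel gives the net intensity of miR-29a on each array as bars, filled for Hy3 (the sample) and hatched for Hy5 (the pool), with lines from the lowest to the highest kept spot; the right panel gives net Hy3 over net Hy5. Hy3 exceeds Hy5 on the 3 estradiol arrays, with ratios of 1.13 to 1.46, and lies below it on the 3 untreated arrays, with ratios of 0.31 to 0.83.

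The difference in miR-29a rested on the division by the pool. With each channel scaled alone (quantile normalization between arrays), the Hy3 signal was 10.34 ± 0.63 after estradiol and 10.41 ± 0.66 in untreated cells on the log2 scale (SD, n = 3 each), which differed by -0.070 (SE 0.40; limma adjusted p = 0.91). The Hy5 signal of the same pool was 9.94 ± 0.81 on the estradiol arrays and 10.95 ± 0.78 on the untreated arrays, which differed by -1.003 (SE 0.49; limma adjusted p = 0.31). In Hy3 alone 4 of 294 probes (1.36%) passed and in Hy5 alone 0, with 47 at an unadjusted p under 0.05 in Hy5. The cause of these Hy5 values was not tested. A loess curve fitted to bright probes alone, those above background in Hy3 and Hy5, gave miR-29a 0.64 (SE 0.23; limma adjusted p = 0.049).

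The miR-29c probe was also higher relative to the pool after estradiol. Its log ratios were -0.18, -0.32 and -0.063 on the estradiol arrays and -1.13, -1.12 and -0.88 on the untreated arrays. The groups were 0.56 apart at their nearest arrays. The means were -0.19 ± 0.13 after estradiol and -1.04 ± 0.14 in untreated cells (SD, n = 3 each), and differed by 0.86 (SE 0.16; limma adjusted p = 0.0033).

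Net Hy3 intensity of miR-29c was 330, 261 and 477 on the estradiol arrays and 21.1, -1.38 and 269 on the untreated arrays, so that on 2 untreated arrays the sample signal was at background. Its net Hy5 intensity was 285, 255 and 484 on the estradiol arrays and 234, 289 and 409 on the untreated arrays. The groups overlapped in each channel. In Hy3 estradiol replicate 2 lay just below untreated replicate 3, and the other estradiol arrays lay above it. With the channels scaled alone, miR-29c differed by 0.67 in Hy3 (SE 0.23; limma adjusted p = 0.12) and by -0.58 in Hy5 (SE 0.30; adjusted p = 0.33). Its call also ended with loess on the bright probes (0.38, SE 0.37; limma adjusted p = 0.66) and with centring on the spiked controls (0.67, SE 0.22; adjusted p = 0.074), and its value was 0.23 without background correction (SE 0.055; adjusted p = 0.018).

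The miR-29b probe did not pass. Its log ratios were -0.37, -0.21 and -0.070 on the estradiol arrays and -0.95, -0.79 and -0.40 on the untreated arrays. The groups did not overlap, but the lowest estradiol array lay 0.026 above the highest untreated array. The means were -0.22 ± 0.15 after estradiol and -0.71 ± 0.28 in untreated cells (SD, n = 3 each), and differed by 0.50 (SE 0.18; limma adjusted p = 0.15, unadjusted p = 0.015). Net Hy3 intensity was 173, 214 and 433 on the estradiol arrays and 57.9, -70.1 and 248 on the untreated arrays, where the sample signal of replicate 2 was below its background. Net Hy5 intensity was 177, 176 and 485 on the estradiol arrays and 218, 127 and 256 on the untreated arrays, and the groups overlapped in each channel. With the channels scaled alone, miR-29b differed by 0.47 in Hy3 (SE 0.26; limma adjusted p = 0.30) and by -0.26 in Hy5 (SE 0.31; adjusted p = 0.61). Among single kept spots, 9 of 12 estradiol spots and all 10 untreated spots had a log ratio below 0. The log ratios of miR-29b and miR-29c were below 0 on every array, so their sign does not place the samples against the pool.

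Untreated replicate 3, where 2 of the 4 miR-29b spots were the misshapen ones, moved the difference most of the 6 arrays. Without that array the difference was 0.65 (SE 0.17; limma adjusted p = 0.051), and with every spot kept it was 0.23 (SE 0.29; adjusted p = 0.76). The difference was 0.042 with loess on the bright probes (SE 0.37; limma adjusted p = 0.99) and 0.18 without background correction (SE 0.056; adjusted p = 0.080). In the authors' deposited table miR-29b has a log2 ratio on this array alone, 1.17, against -0.40 from the 2 regular spots here. For miR-29c the authors' deposited table likewise has 1 value, -0.48 on estradiol replicate 3. For miR-29a the authors' deposited table has all 6, with 0.095, 0.35 and 0.21 on the estradiol arrays and -0.57, -0.86 and -0.89 on the untreated arrays. The same model fitted to the authors' log ratios, over 103 probes in place of 294, gave 0.99 for miR-29a (SE 0.20, limma adjusted p = 0.0052).

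**Figure D3:**
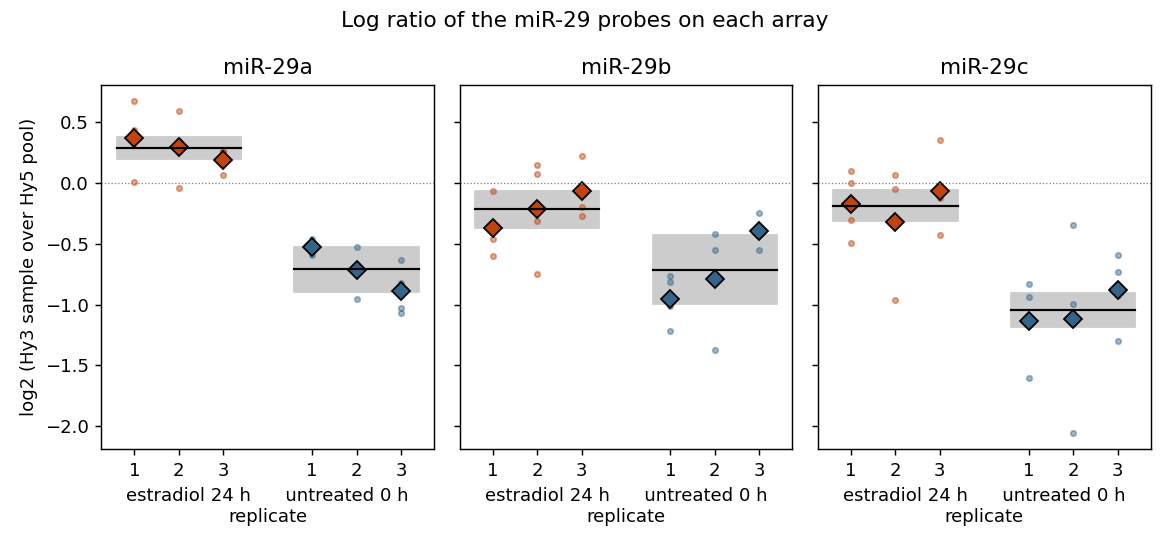
Diamonds give the log2 ratio of each miR-29 probe to the reference pool on each array, small points its kept spots, lines the group mean and grey bands ± 1 SD (n = 3). The groups are apart by 0.71 for miR-29a and 0.56 for miR-29c, and by 0.026 for miR-29b.

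Read against all probes, 2 of the 3 members were among the few probes called higher relative to the pool. Of 294 miRNA probes 19 passed the test (6.46%), 17 of them higher after estradiol (5.78%) and 2 lower, and of the 3 members 2 were higher and 0 lower. By unadjusted p, miR-29a ranked 6, miR-29c 9 and miR-29b 29 of the 294. The members' median difference was 0.86, beside -0.020 over all probes and -0.0091 over the 243 that, like the members, did not pass the 2 SD filter; of those 243, 10 were higher (4.12%). The 51 probes that passed the filter include no member, and fitted alone 7 of them were called (13.7%). The log ratios of the groups were without overlap in the higher direction for all 3 members, beside 14.4% of the 292 probes with a value on every array and 13.6% of those that did not pass the filter. In either direction 21.6% of the 292 were without overlap. The members share a seed and nearly all of their bases, so their probes are not taken as 3 independent observations.

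**Figure D4:**
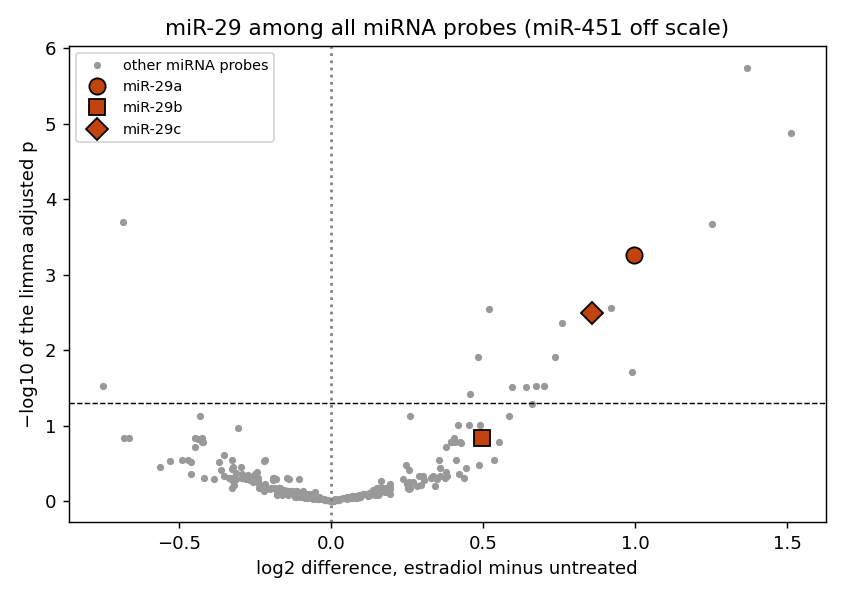
Each point is 1 of the miRNA probes, placed by its log2 difference (estradiol minus untreated) and the −log10 of its limma adjusted p; the dashed line marks an adjusted p of 0.05, and miR-451 is left out for scale. MiR-29a at 0.996 and miR-29c at 0.86 lie above the line among the 17 higher probes, and miR-29b at 0.50 lies below it.

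The members were also set against each other within each array, which removes a shift that all log ratios of an array share. Effects of background that differ between brighter and dimmer probes are not removed. The log ratio of miR-29a exceeded that of miR-29b by 0.50 ± 0.24 after estradiol and by 0.0027 ± 0.46 in untreated cells (SD, n = 3 each), a change of 0.50 (exact permutation test, two-sided p = 0.2). It exceeded that of miR-29c by 0.47 ± 0.19 after estradiol and by 0.33 ± 0.31 in untreated cells, a change of 0.14 (exact permutation p = 0.6). The log ratio of miR-29b minus that of miR-29c was -0.031 ± 0.15 after estradiol and 0.33 ± 0.15 in untreated cells, a change of -0.36 (exact permutation p = 0.1). With 3 arrays against 3 the smallest p that this test allows is 0.1, so none of the 3 pairs could pass and no difference in response between the members was shown.

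Across the 6 arrays the log ratios were correlated with those of 291 other probes, and the most alike outside the family are named. The pattern of miR-29a was most like that of miR-21 (Pearson r = 0.964), miR-451 (0.961) and miR-129-5p (0.959). That of miR-29c was most like miR-451 (0.969), miR-144 (0.946), the neighbour of miR-451 in the genome, and miR-500 (0.943). That of miR-29b was most like miR-140 (0.911), miR-186 (0.895) and miR-126-3p (0.851). Within the family r was 0.901 between miR-29a and miR-29c, 0.887 between miR-29b and miR-29c and 0.645 between miR-29a and miR-29b. The 6 arrays form 2 groups and share a reference, so these coefficients mostly describe the step between the groups and carry no p.

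Other miRNAs known to target DNA methyltransferase or TET transcripts were read beside the family. All 8 on the list (miR-148a, miR-148b, miR-152, miR-22, miR-26a, miR-26b, miR-101a and miR-101b) were measured, limma called 0 in either direction (1 at an unadjusted p under 0.05), beside 6.46% of all probes, and their median difference was 0.12, beside -0.020 over all probes. With 8 probes a count of 0 is near that share and is not a result about the list. The largest differences were 0.41 for miR-26b (SE 0.19; limma adjusted p = 0.29) and 0.18 for miR-148a (SE 0.23; adjusted p = 0.76). None of these probes passed the 2 SD filter either, so their sample signal was as limited as that of miR-29.

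Markers of cell types were read on the same scale, where 5.78% of all probes were called higher by limma. Of 4 erythroid markers 3 were higher after estradiol, miR-451 by 5.04, miR-144 by 1.51 and miR-16 by 0.99, while miR-486 differed by 0.43 and was not called. In Hy3, miR-451, miR-144 and miR-486 were filled on 0 untreated arrays and miR-16 on 2. MiR-144 was above background by 2 SD on no array. The sizes of these differences therefore depend on sample signals near background. The median difference was 1.25 over the erythroid and 0.67 over the myeloid and mast cell list, beside -0.020 over all probes. Of the 5 miRNAs on the myeloid and mast cell list 3 were higher, miR-21 by 1.25, miR-142-3p by 0.92 and miR-142-5p by 0.67. Whether these 3 are specific to myeloid cells was not tested, so they do not show a myeloid change. The others on that list were not called: miR-223 differed by 0.39 and was filled in Hy3 on 1 estradiol array and 0 untreated arrays, and miR-155 differed by -0.26 and was filled on none. MiR-21, miR-142-3p and miR-142-5p were higher relative to the pool together with miR-29a and miR-29c, and any part of myeloid cells in that difference was not tested.

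Of 6 fibroblast markers limma called 0 (0 at an unadjusted p under 0.05), which is near the share of all probes, with differences between -0.18 and 0.25 and a median of -0.020. MiR-145, miR-199a, miR-199a* and miR-199b were filled in Hy3 on no array, whereas miR-143 and miR-214 were filled on all 6. The hepatocyte marker miR-122a was also filled on all 6, with log ratios of 1.81 ± 0.19 after estradiol and 1.98 ± 0.14 in untreated cells (SD, n = 3 each), and its difference of -0.17 was not called. MiR-143 likewise lay far above 0, at 3.07 ± 0.26 after estradiol and 2.82 ± 0.61 in untreated cells. An equal pool cannot lie below all of its samples, so these heights above 0 were not read as amounts of either miRNA.

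**Figure D5:**
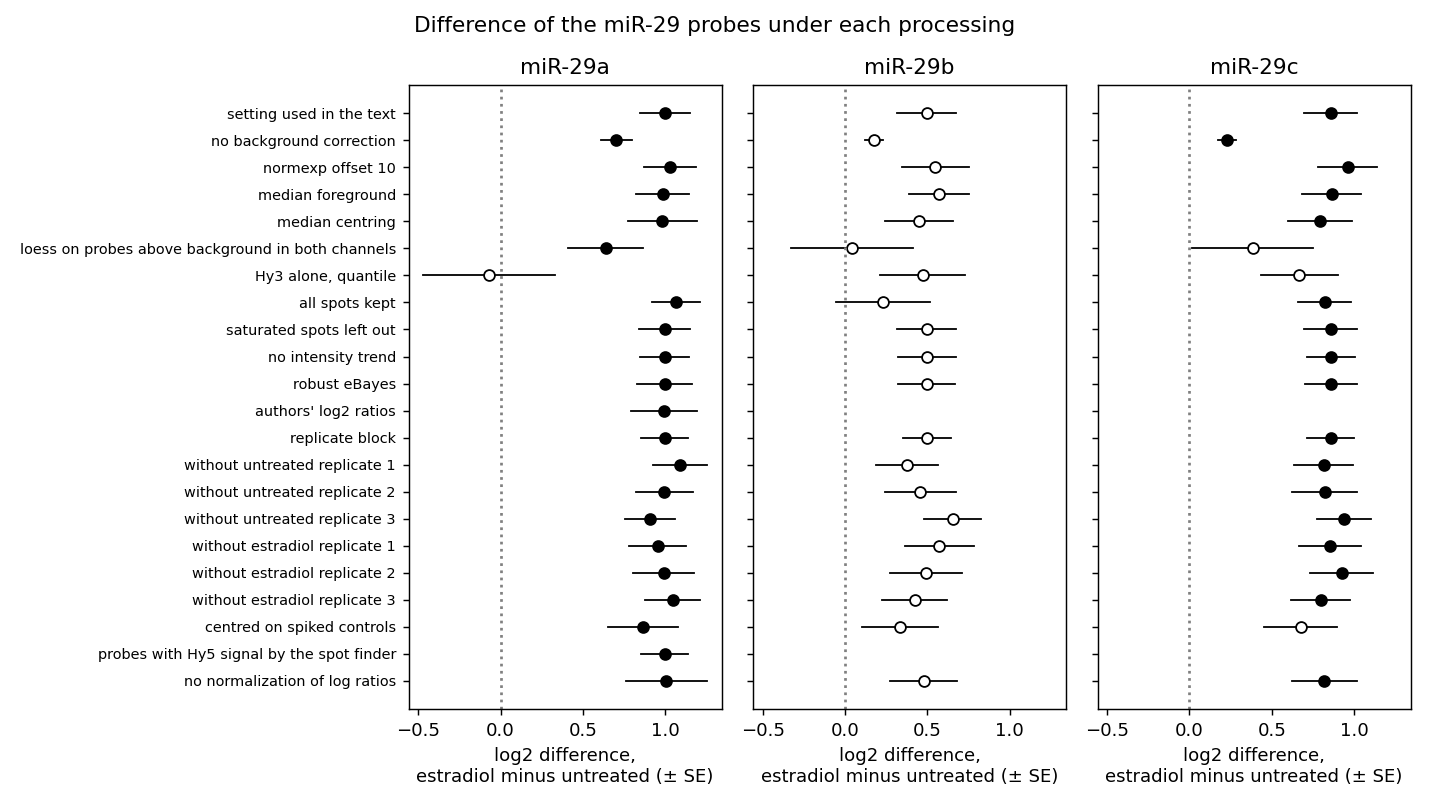
Each row is a way of processing, and each point the log2 difference of a miR-29 probe (estradiol minus untreated) with its SE, filled where the limma adjusted p was under 0.05. MiR-29a lies between 0.64 and 1.09 except at -0.070 in Hy3 alone, miR-29c between 0.23 and 0.96, and miR-29b between 0.04 and 0.65 with no filled point.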

How the data were processed

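Total RNA of 6 cultures was labelled and hybridised by a company, per the labels. The deposited scanner tables give foreground and local background intensity per spot, per the file headers, not background-subtracted; the sources used here do not name the scanner or software. The authors' deposited log2 ratios per probe, Hy3 over Hy5 after lowess per the file headers, were used as an alternative.

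With limma 3.58.1 (R 4.3.3), mean foreground was corrected for median background by normexp (offset 50). Loess (span 0.3, control spots at weight 0) then normalized the log2 ratios of each array, and kept spots of a probe were averaged. Between 111 and 212 spots per array that failed the software's shape, area, offset or contamination checks were left out. Estradiol was compared with untreated by lmFit and eBayes with an intensity trend over all 294 miRNA probes, without the 2 SD brightness filter, which 51 probes passed and no member did. Array number, 3 per group, limits the precision. The fit was run on simulated data in which every spot lay above its background and the Hy5 level did not differ between the groups. That setting does not cover probes as dim as those of miR-29. Alternatives changed the background correction, the normalization, the spots and probes kept, the variance model and the arrays used, or took Hy3 alone.

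Named miRNAs were the members, miR-451, the 3 most correlated probes of each member and from the list of DNA methyltransferase and TET regulators the calls or the 2 largest differences; marker miRNAs are named with their lists. Members and lists were chosen with earlier results of these data known. Figures were drawn with matplotlib 3.10.9.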

Additional observations from a re-analysis of the deposited data

How the results depend on the processing

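MiR-29a kept its direction and its call in 20 of 21 alternatives and turned to -0.070 in Hy3 alone. MiR-29c kept its call in 16 of 19 and lost it in Hy3 alone (0.67), with loess on the bright probes (0.38) and centred on spiked controls (0.67). On each array that loess was fitted on 53 to 90 probes, and between 6 and 12 of the 12 miR-29 spots were dimmer than all of them, so their correction was extended from the dimmest fitted spot. The median difference of all probes was -0.25 with it and -0.11 centred on the spiked controls, against -0.020. MiR-29b passed in none of 19, with limma adjusted p between 0.051 and 0.99 and differences that were all above 0 but as low as 0.042 (SE 0.37) with loess on the bright probes and 0.18 without background correction. Leaving out 1 array gave 0.91 to 1.09 for miR-29a, 0.80 to 0.94 for miR-29c and 0.38 to 0.65 for miR-29b. The count of 19 called probes became 12 with median centring, 29 with loess on bright probes, 4 in Hy3 alone, 7 of 51 with the brightness filter, 8 without the intensity trend, 10 centred on spiked controls and 9 with no normalization of log ratios, and 8 to 24 without 1 array (8 without estradiol replicate 1, 11 without estradiol replicate 2). Fewer probes were tested with the brightness filter; otherwise the cause was not tested. Spiked controls, no normalization and a filter on Hy5 spots were added after seeing the data. With the replicate number as a block the differences of miR-29a, miR-29c and miR-29b stayed at 0.996, 0.86 and 0.50 (limma adjusted p = 0.0026, 0.0073 and 0.10) and 18 probes passed. Same-numbered arrays deviated together at r = 0.13, 0.15 and 0.076, and every array correlated best with its own number, a hint from the data that the labels do not explain. The brightness filter and, for miR-29b and miR-29c, the authors' log ratios and the filter on Hy5 spots gave no value.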
